A study of Mus musculus with 12 samples.

Results

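The S100 alarmins S100a8, S100a9 and S100a7a are 3 of the 22180 genes with a row of their own in an array series on mouse dorsal skin. They were taken as the listed S100 genes of the epidermal differentiation complex, the cluster on chromosome 3 that holds many genes of the outer epidermis, and each was read by 1 row of the table. The rule names them without use of their measured values, but members were chosen with earlier results of these data known. The series asks whether psoriasis-like skin inflammation caused by overexpressed IL-17C, a cytokine, persists without the cytokine IL-6.

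RNA was measured on 12 arrays, each a pool of dorsal skin from several C57Bl/6 mice of both sexes. There were 6 groups with 1 pool at 10 weeks and 1 at 14 weeks of age. Mice overexpressing IL-17C (IL-17C+) gave skin from involved and from uninvolved areas. Mice with the transgene and a knock-out of IL-6 (IL-17C+KO) likewise gave involved and uninvolved skin. IL-6KO mice lack IL-6 and carry no transgene, and WT mice are the controls. Skin of IL-6KO mice is labelled as involved and skin of WT mice as uninvolved, although both are described as coming from similar anatomical regions. Pools held 4 mice for IL-6KO and WT at 10 weeks and 5 mice otherwise. The sources used here do not give the promoter that drives the transgene, or say whether involved and uninvolved pools share mice.

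S100A8 and S100A9 are small calcium-binding proteins that pair to form calprotectin, which withholds zinc and manganese from microbes. Neutrophils store them in bulk, and keratinocytes make them when the epidermis is wounded or inflamed. Once outside the cell they can act as danger signals through the receptors TLR4 and RAGE. S100a7a is the mouse relative of human psoriasin, an antimicrobial S100 protein first described in psoriatic skin.

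All values are levels after the authors' RMA summary, on the log2 scale, and differences are in log2 units with the standard error (SE) of limma. An adjusted p is that of limma with Benjamini-Hochberg over all 22180 genes, and a gene was called at an adjusted p under 0.05. The 2 pools of a group differ in age, so the p-values rest on how age gaps vary between groups around a shared age shift. Variation between like pools and age changes of single groups cannot be told apart there. Variation between single mice is not measured. In bulk skin, fewer cells of a type and less RNA per cell cannot be told apart, and array levels were not compared between genes. Array medians lay between 3.97 and 4.23, and keratinocyte genes such as Krt14 and Krt10 were well above them on all arrays. Il17c, which the transgene encodes, followed the labels in part. It read 5.81 and 6.63 at 10 and 14 weeks in involved skin of IL-17C+ mice and 4.74 and 4.16 in their uninvolved skin. In IL-17C+KO mice it read 5.32 and 5.62 in involved skin and 6.16 and 6.25 in uninvolved skin. It read 6.30 and 6.17 in IL-6KO skin, against 4.67 and 4.96 in WT skin. Il17c was called higher than in WT in IL-17C+ involved skin (1.40, limma's adjusted p 0.0329) and IL-17C+KO uninvolved skin (1.39, limma's adjusted p 0.0406), while IL-17C+ uninvolved skin overlapped WT skin and IL-6KO skin, with no transgene, lay above it. The sources used here do not say whether its row reads the transgene.

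The site labels of the IL-17C+KO pools also stood in question. At both ages the pool labelled uninvolved had the higher levels of inflammatory genes: the mean of 8 stressed keratinocyte genes was 5.71 and 7.58 at 10 and 14 weeks in the pools labelled involved, against 8.89 and 8.83 in those labelled uninvolved. The labels were kept as given. Exchanged site labels and a true difference of site cannot be told apart here, and each value given for IL-17C+KO involved or uninvolved skin rests on them.

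The 3 genes are direct neighbours in RefSeq's gene order, in the sequence S100a7a, S100a8, S100a9, so their start regions are shown to set the genes beside each other. The sequences are RefSeq's for GRCm38.p6 and run 5′ to 3′ on the strand of the gene, covering 250 bases before to 50 bases after its start. S100a7a lies at chr3:90654052-90654351 on the plus strand, S100a8 at chr3:90668821-90669120 on the plus strand and S100a9 at chr3:90695672-90695971 on the minus strand. Capitals mark matches to the motifs described after them.
S100a7a: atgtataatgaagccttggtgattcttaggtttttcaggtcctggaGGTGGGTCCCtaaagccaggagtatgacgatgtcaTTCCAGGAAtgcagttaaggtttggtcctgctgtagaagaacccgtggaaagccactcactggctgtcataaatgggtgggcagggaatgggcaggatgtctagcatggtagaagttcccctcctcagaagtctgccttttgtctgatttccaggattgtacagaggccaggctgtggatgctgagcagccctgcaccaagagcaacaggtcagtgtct
S100a8: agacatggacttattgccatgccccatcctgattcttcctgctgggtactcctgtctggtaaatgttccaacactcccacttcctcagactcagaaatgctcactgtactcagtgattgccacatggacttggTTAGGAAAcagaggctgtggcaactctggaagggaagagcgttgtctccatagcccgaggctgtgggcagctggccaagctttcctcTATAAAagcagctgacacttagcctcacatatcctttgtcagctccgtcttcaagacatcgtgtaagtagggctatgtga
S100a9: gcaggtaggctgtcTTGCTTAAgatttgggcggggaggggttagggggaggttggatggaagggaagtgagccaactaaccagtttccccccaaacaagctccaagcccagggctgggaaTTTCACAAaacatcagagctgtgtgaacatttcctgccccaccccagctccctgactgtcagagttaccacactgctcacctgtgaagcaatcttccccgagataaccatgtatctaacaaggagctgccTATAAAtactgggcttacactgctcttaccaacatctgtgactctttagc

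Motifs were searched as plain letters on both strands: AP-1 as TGANTCA, C/EBP as TTNNGNAA, STAT as TTCNNNGAA, the TATA box as TATAAA, and NF-kB as GGG and CC parted by 5 bases of any kind. The windows of S100a8 and S100a9 both held C/EBP letters, 1 match in S100a8 at position -117 and 2 in S100a9 at positions -236 and -130. Both also held TATAAA, which began at position -30 in S100a8 and at position 1 in S100a9, counted from the first transcribed base. The S100a7a window held neither, and had 1 STAT match at position -169 and 1 NF-kB match at position -204. AP-1 letters were in none of the 3 windows, and no matches overlapped. Of 32851 mouse promoter windows of this length, 40.7% held the C/EBP letters, 13.6% the TATA letters, 8.30% the STAT letters, 50.8% the NF-kB letters and 7.81% the AP-1 letters. A match of letters is a description of the window and not a bound site.

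S100a8 and S100a9 were high in 2 of the 6 groups, IL-17C+ involved skin and IL-17C+KO uninvolved skin, at both ages. S100a8 read 10.32 and 10.67 in IL-17C+ involved skin at 10 and 14 weeks, and 4.93 and 4.26 in the uninvolved skin of IL-17C+ mice. In IL-17C+KO mice it read 5.51 and 8.69 in involved skin and 10.35 and 10.74 in uninvolved skin. It read 6.16 and 8.01 in IL-6KO skin, against 4.55 and 3.67 in WT skin. The 4 arrays of IL-17C+ involved and IL-17C+KO uninvolved skin lay above the other 8, and the WT array at 14 weeks lay below its array median.

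S100a9 read 10.65 and 11.02 in IL-17C+ involved skin at 10 and 14 weeks, and 5.28 and 3.77 in the uninvolved skin of IL-17C+ mice. In IL-17C+KO mice it read 5.90 and 9.001 in involved skin and 10.42 and 10.95 in uninvolved skin. It read 6.53 and 8.48 in IL-6KO skin, against 4.78 and 4.62 in WT skin. As for S100a8, the same 4 arrays lay above the other 8, and the IL-17C+ uninvolved array at 14 weeks lay below its array median. Over the 12 arrays the log2 levels of S100a8 and S100a9 correlated at r = 0.993 (rho = 0.979). This is a description over arrays that share their groups.

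S100a7a ran over a narrower range and in another order. It read 5.93 and 5.80 in IL-17C+ involved skin at 10 and 14 weeks, and 5.40 and 6.63 in the uninvolved skin of IL-17C+ mice. In IL-17C+KO mice it read 4.07 and 5.15 in involved skin and 5.88 and 6.20 in uninvolved skin. It read 5.78 and 6.85 in IL-6KO skin, against 4.94 and 4.67 in WT skin. The arrays of WT and IL-17C+KO involved skin lay below all those of the other 4 groups, which overlapped each other. The correlation of S100a7a over the 12 arrays was r = 0.403 with S100a8 and r = 0.347 with S100a9.

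**Figure D1:**
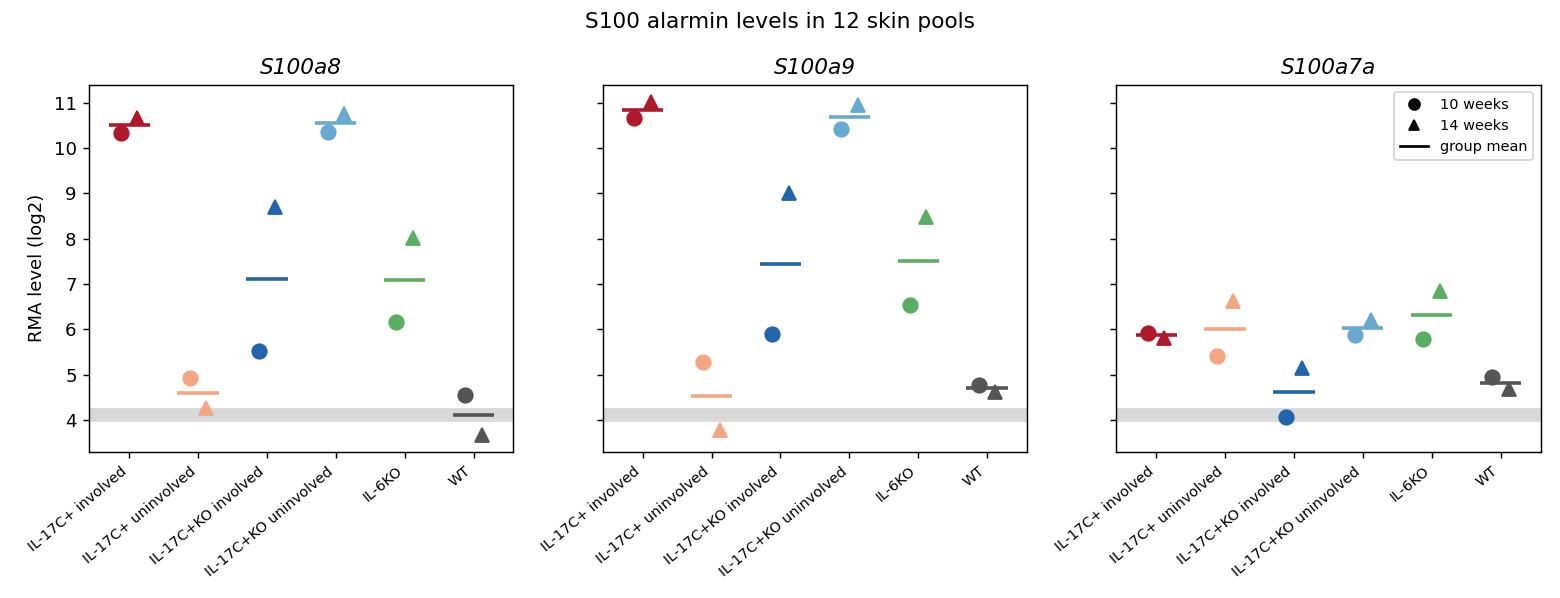
Level of each gene in the 12 pools (y axis, log2 after RMA) by group (x axis), with circles for 10 weeks, triangles for 14 weeks, lines for group means and a grey band for the range of array medians. S100a8 and S100a9 sit above 10 in IL-17C+ involved and IL-17C+KO uninvolved skin, while S100a7a stays between 4.07 and 6.85.

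By group mean, S100a8 ran in the order IL-17C+KO uninvolved (10.55 ± 0.28), IL-17C+ involved (10.50 ± 0.25), IL-17C+KO involved (7.10 ± 2.25), IL-6KO (7.08 ± 1.31), IL-17C+ uninvolved (4.59 ± 0.47) and WT (4.11 ± 0.62; SD, n = 2 each). The first pair, the middle pair and the last pair each overlapped within the pair, and neighbouring pairs did not overlap. S100a9 fell into the same 3 pairs, led by IL-17C+ involved skin at 10.84 ± 0.26 and ending with IL-17C+ uninvolved skin at 4.53 ± 1.07 (SD, n = 2 each). For S100a7a, 4 groups between 5.87 and 6.32 overlapped their neighbours in the order, and WT (4.81 ± 0.19) and IL-17C+KO involved skin (4.61 ± 0.77; SD, n = 2 each) lay below them and overlapped each other.

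The gap between the ages of S100a8 and S100a9 was widest in the middle pair of groups. For S100a8 the 14-week array exceeded the 10-week array by 3.18 in IL-17C+KO involved skin and by 1.85 in IL-6KO skin, against 0.39 in IL-17C+KO uninvolved skin and 0.35 in IL-17C+ involved skin. In WT skin the S100a8 difference of the ages was -0.88 and in IL-17C+ uninvolved skin -0.67. Over all groups the 14-week minus 10-week difference was 0.70 ± 0.42 for S100a8, 0.71 ± 0.43 for S100a9 and 0.55 ± 0.21 for S100a7a, with adjusted p from limma of 0.616, 0.623 and 0.571. In that comparison limma called 0 genes (0%), with 1856 at an unadjusted p under 0.05. With 1 array per group and age, the age gaps of single groups have no test.

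The effect of the transgene was read from IL-17C+ involved skin against WT skin, so it holds transgene and involved site together. S100a8 was 6.39 ± 0.72 higher, with limma's adjusted p of 0.000892. S100a9 was 6.14 ± 0.75 higher, with limma's adjusted p of 0.00161. S100a7a differed by 1.06 ± 0.36, with limma's adjusted p of 0.217. Thus 2 of 3 genes were called, where 1.80% of all genes were called in either direction (399 of 22180). The WT level of S100a8 was near the array median, so the size of the difference rests on a dim signal. It was 5.44 without the WT array at 14 weeks and 7.34 without that at 10 weeks. For S100a9 the values without these arrays were 5.61 and 6.66.

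Against uninvolved skin of the same genotype, involved skin had S100a8 higher by 5.90 ± 0.72 and S100a9 higher by 6.31 ± 0.75, with limma's adjusted p of 0.00157 and 0.00137. S100a7a differed by -0.15 ± 0.36 with limma's adjusted p of 0.926. Again 2 of 3 genes were called, against 1.61% of all genes (357). In IL-17C+ uninvolved skin at 14 weeks S100a8 was near the array median and S100a9 below it, so these sizes also rest on a dim signal. Without the IL-17C+ uninvolved array at 14 weeks the values were 5.08 for S100a8 and 4.98 for S100a9, and without that at 10 weeks they were 6.72 and 7.65. IL-17C+ uninvolved skin against WT skin gave 0.49 ± 0.72 for S100a8, -0.17 ± 0.75 for S100a9 and 1.21 ± 0.36 for S100a7a, with limma's adjusted p of 0.942, 0.983 and 0.731. None of the 3 was called there, where 12 genes (0.0541%) were. These comparisons share arrays.

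In IL-17C+KO mice the skin labelled uninvolved held the high levels. IL-17C+KO uninvolved skin exceeded WT skin by 6.44 ± 0.72 for S100a8 and by 5.99 ± 0.75 for S100a9, with limma's adjusted p of 0.000835 and 0.00191. Without the WT array at 14 weeks these were 5.49 and 5.46, and without that at 10 weeks 7.39 and 6.51. Of the 3 genes 2 were called, against 1.39% of all genes (308), and S100a7a differed by 1.23 ± 0.36 with limma's adjusted p of 0.132. Against uninvolved skin of IL-17C+ mice it exceeded by 5.95 ± 0.72 for S100a8 and 6.16 ± 0.75 for S100a9, with limma's adjusted p of 0.00162 and 0.00166. Without the IL-17C+ uninvolved array at 14 weeks they were 5.13 and 4.83, and without that at 10 weeks 6.77 and 7.4953. There 2 of 3 genes were called, against 0.712% of all genes (158), and S100a7a differed by 0.02 ± 0.36 (limma's adjusted p 0.999).

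The 4 comparisons that called S100a8 and S100a9 kept those calls without any 1 of the 12 arrays, and the 2 against WT skin also without the IL-6KO and IL-17C+ uninvolved arrays. With the mean of 21 skeletal muscle genes as a covariate, none of them kept a call, and the values fell to 2.85 ± 0.97 (S100a8) and 3.33 ± 1.26 (S100a9) for IL-17C+ involved against WT skin. The corresponding values were 2.27 and 3.43 for IL-17C+ involved against uninvolved skin, 4.13 and 4.15 for IL-17C+KO uninvolved against WT skin, and 3.55 and 4.25 for IL-17C+KO uninvolved against IL-17C+ uninvolved skin. The muscle list varied with the groups: its mean was 7.78 and 7.47 in IL-17C+ involved skin and 8.19 and 8.72 in the uninvolved skin of IL-17C+KO mice at 10 and 14 weeks, against 9.60 and 10.43 in WT skin. The part of muscle content in the result was not tested, and that fit had SEs 2.09 times as large at the median gene. Few or no genes of all were called in these 4 comparisons in that fit, so the loss was not particular to S100a8 and S100a9.

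IL-17C+KO involved skin lay below both on average, without a call. Compared with IL-17C+ involved skin it differed by -3.40 ± 0.72 for S100a8, -3.39 ± 0.75 for S100a9 and -1.26 ± 0.36 for S100a7a, with limma's adjusted p of 0.0589, 0.0694 and 0.182. The S100a8 difference was -4.81 at 10 weeks and -1.98 at 14 weeks. No member was called, where 0.649% of all genes were (144). Compared with IL-17C+KO uninvolved skin, it differed by -3.45 ± 0.72, -3.24 ± 0.75 and -1.43 ± 0.36 for S100a8, S100a9 and S100a7a. The adjusted p from limma were 0.0657, 0.108 and 0.162, and 0.505% of all genes were called (112).

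The calls around IL-17C+KO involved skin depended on its 2 arrays, of which that at 10 weeks was near the low groups and that at 14 weeks was higher. Without the 14-week array, the S100a8 difference from IL-17C+ involved skin was -4.88 with limma's adjusted p of 0.00251, and that from IL-17C+KO uninvolved skin was -4.93 with 0.00277. The S100a9 differences were then -4.82 with 0.00576 and -4.67 with 0.00748. Without the 10-week array, S100a8 exceeded WT skin by 4.48 with limma's adjusted p of 0.0145 and S100a9 by 4.18 with 0.0374. Arrays outside the 2 groups also tipped these calls through the spread: without either IL-17C+ uninvolved array, S100a8 and S100a9 were called in both comparisons at limma's adjusted p between 0.0227 and 0.0456, and without either WT array S100a8 was called against IL-17C+ involved skin (0.0422 and 0.0412). With all arrays, IL-17C+KO involved skin against WT skin gave 2.99 ± 0.72, 2.75 ± 0.75 and -0.20 ± 0.36 for S100a8, S100a9 and S100a7a, with limma's adjusted p of 0.321, 0.371 and 0.905, and 5 genes were called (0.0225%).

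Loss of IL-6 without the transgene was read from IL-6KO against WT skin. The first is labelled involved and the second uninvolved, so the comparison holds genotype and labelled site together. S100a8 differed by 2.98 ± 0.72, S100a9 by 2.81 ± 0.75 and S100a7a by 1.51 ± 0.36, with limma's adjusted p of 0.125, 0.181 and 0.1202. All 3 were higher at both ages in the IL-6KO array than in the WT array, S100a8 by 1.61 at 10 weeks and 4.34 at 14 weeks, and none was called, where 0.455% of all genes were (101). Without either IL-17C+KO involved array, which takes no part in this difference but sets the spread, S100a8 and S100a9 were called: limma's adjusted p was 0.0152 and 0.0407 without the 10-week array, and 0.0149 and 0.0399 without the 14-week array.

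The transgene on an IL-6-null background was read against IL-6KO skin, which is labelled involved. IL-17C+KO involved skin differed from it by 0.01 ± 0.72 for S100a8 and -0.06 ± 0.75 for S100a9, with limma's adjusted p of 0.9995 for both, and by -1.71 ± 0.36 for S100a7a with limma's adjusted p of 0.125. Called genes made up 0.171% there (38). IL-17C+KO uninvolved skin differed from it by 3.46 ± 0.72 for S100a8 and by 3.18 ± 0.75 for S100a9, not called at limma's adjusted p of 0.0707 and 0.121, where 0.397% of genes were called (88). Both were called without either IL-17C+ uninvolved array, at limma's adjusted p of 0.0452 for S100a8 and of 0.0356 and 0.0359 for S100a9, and without either IL-17C+KO involved array, at 0.00769 and 0.00748 for S100a8 and 0.0262 and 0.0256 for S100a9. S100a7a differed by -0.28 ± 0.36 with limma's adjusted p of 0.937.

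**Figure D2:**
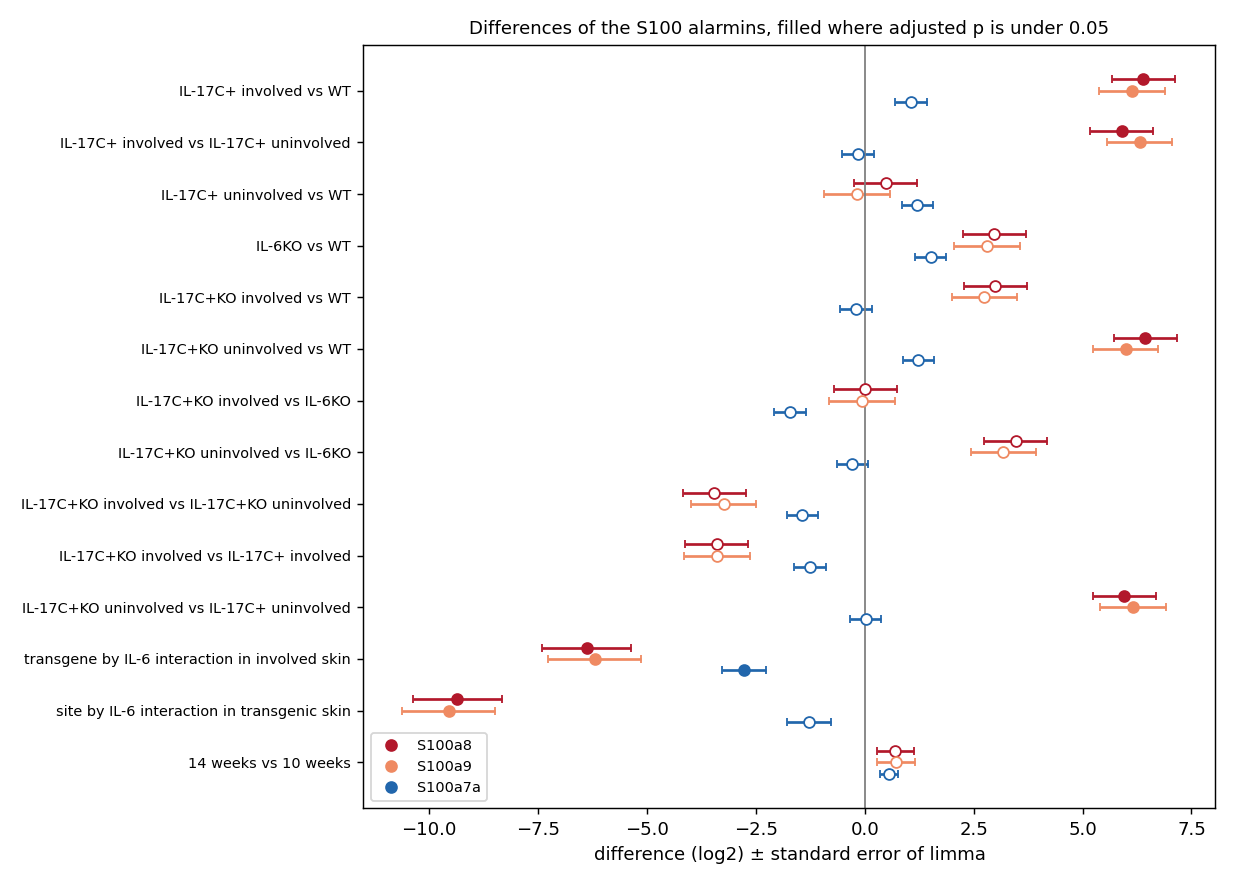
Difference of each gene (x axis, log2, points with the SE of limma) in the 14 comparisons (y axis), filled where the adjusted p was under 0.05. S100a8 and S100a9 lie close together, while S100a7a is filled in 1, the interaction of transgene and IL-6.

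The differences of differences were tested directly. The transgene effect in involved skin, on an IL-6-null background minus that on an IL-6-intact background, was -6.37 ± 1.02 for S100a8, -6.20 ± 1.06 for S100a9 and -2.77 ± 0.51 for S100a7a. Limma's adjusted p was 0.0104, 0.0139 and 0.0214, so all 3 genes were called, against 1.31% of all genes (290). For S100a8 the transgene effect was -0.65 and 0.68 at 10 and 14 weeks without IL-6, against 5.78 and 7.0005 with IL-6. By the labels IL-6KO skin is involved and WT skin uninvolved, so only the effect with IL-6 also holds labelled site. The 2 cannot be told apart in this test. The IL-6KO reference itself lay 2.98 above WT skin for S100a8, and IL-17C+KO involved skin 3.40 below IL-17C+ involved skin. Neither difference was called (limma's adjusted p 0.125 and 0.0589). For S100a7a the transgene effect was -1.72 and -1.71 without IL-6, against 0.98 and 1.13 with it. Its sign was thus opposite on the 2 backgrounds, but it was called on neither (limma's adjusted p 0.125 and 0.217).

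These 3 calls depended on single arrays and on the site labels of the IL-17C+KO pools. With those labels exchanged, a choice made after seeing the data, the values were -2.93 ± 1.02, -2.96 ± 1.06 and -1.34 ± 0.51 for S100a8, S100a9 and S100a7a. None was called then, at limma's adjusted p of 0.568, 0.593 and 0.633, where 1 gene of all was called. With the labels as given, the value without the IL-17C+KO involved array at 10 weeks was -4.89 for S100a8 and -4.76 for S100a9, and without that at 14 weeks -7.86 and -7.63, called in each case. Without the IL-6KO array at 10 weeks they were -7.06 and -6.94, and without the WT array at 10 weeks S100a8 was -7.32, also called. S100a8 was not called without the IL-17C+ involved array at 10 weeks (-6.16), the IL-6KO array at 14 weeks (-5.69) or the WT array at 14 weeks (-5.43), and S100a9 was not called without the same arrays (-5.99, -5.45 and -5.67). S100a7a was not called without these (-2.37, -2.46 and -2.28) or without the IL-17C+KO involved array at 10 weeks (-2.45). In the fit without age as a block S100a7a was -2.77 with limma's adjusted p of 0.0671. With the muscle list as a covariate the 3 values were -1.67, -2.45 and -0.93, and none was called, nor was any other gene.

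The site effect, involved minus uninvolved, differed between IL-17C+KO and IL-17C+ mice by -9.35 ± 1.02 for S100a8 and -9.55 ± 1.06 for S100a9, with limma's adjusted p of 0.000343 and 0.000405. For S100a8 the site effect was -4.84 and -2.06 in IL-17C+KO mice at 10 and 14 weeks, against 5.40 and 6.41 in IL-17C+ mice. S100a7a gave -1.28 ± 0.51 with limma's adjusted p of 0.314. Of the 3 genes 2 were called, against 2.58% of all genes (573). Both calls held without any 1 array. The S100a8 value ran from -10.83 without the IL-17C+KO involved array at 14 weeks to -7.87 without that at 10 weeks, and the S100a9 value from -10.99 to -8.12 without the same arrays. Without the IL-17C+ uninvolved array at 14 weeks the values were -8.53 and -8.22, and without that at 10 weeks -10.17 and -10.88. Both calls were lost with the muscle covariate (-4.38 and -5.60), where few genes of all were called. The 2 calls were also lost with the site labels of the IL-17C+KO pools exchanged, where 1 gene of all was called. S100a8 was then -2.45 ± 1.02 and S100a9 -3.07 ± 1.06, with limma's adjusted p of 0.955 and 0.885, and S100a7a was 1.58 ± 0.51.

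Genes most like each member in pattern were ranked by Pearson correlation of log2 level over the 12 arrays, which share groups and tissue make-up. For S100a8 they were S100a9 (0.993), the stress keratin Krt16 (0.988), Cstdc6 (0.986), the cornified envelope genes Sprr1b (0.985), Sprr2e (0.984) and Sprr2d (0.981), the beta-defensin Defb3 (0.979) and the chemokine receptor Cxcr2 (0.979). For S100a9 they were S100a8, Cstdc6 (0.989), Sprr2d (0.981), Sprr2e (0.981), Defb3 (0.980), Sprr1b (0.980), Masp1 (0.978) and Krt16 (0.972). The genes nearest to S100a7a were others: the receptor kinase Ret (0.981), the keratin-associated Krtap1-4 (0.976), Krtap9-1 (0.972), Krtap4-13 (0.955), Krtap4-16 (0.953) and Krtap28-13 (0.946), the S100-fused cornulin gene Crnn (0.962) and the desmocollin Dsc2 (0.952). Keratin-associated proteins are matrix proteins of the hair shaft.

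The list means come from the same arrays, and the stressed keratinocyte list shares Krt16, Sprr1b, Sprr2d and Sprr2e with the ranking above. They are thus no separate support for that ranking. S100a8 correlated at r = 0.994 with the mean of 8 stressed keratinocyte genes and at r = 0.242 with the mean of 9 hair shaft genes. S100a7a correlated at r = 0.429 with the first and r = 0.911 with the second. The stressed keratinocyte list was not alone: S100a8 correlated at r = 0.983 with other antimicrobial genes, 0.918 with IL-17 receptor pathway genes and 0.877 with neutrophil genes. With skeletal muscle genes it was r = -0.898. The stressed keratinocyte mean was 9.11 and 9.24 at 10 and 14 weeks in involved areas of IL-17C+ mice, 5.61 and 5.28 in their uninvolved areas, and 8.89 and 8.83 in uninvolved areas of IL-17C+KO mice. It was 5.71 and 7.58 in IL-17C+KO involved skin and 6.09 and 7.41 in IL-6KO skin, against 5.42 and 4.70 in WT skin, so both middle groups had a higher 14-week array here too. The hair shaft mean was 4.22 and 5.84 in IL-17C+KO involved skin and 8.32 and 8.32 in IL-6KO skin, against 4.86 and 5.28 in WT skin. Its part in the S100a7a differences was not tested.

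The summed intensity of 15 neutrophil genes ran between 1204 and 2151 in IL-17C+ involved skin and between 1543 and 2349 in IL-17C+KO uninvolved skin. It was between 295 and 470 in IL-17C+ uninvolved skin, 418 and 437 in IL-17C+KO involved skin and 372 and 395 in IL-6KO skin, against 403 and 407 in WT skin. So the 2 groups with the highest S100a8 had the highest neutrophil sums. In IL-6KO skin S100a8 differed from WT skin by 2.98 without a call. There 0 of 15 neutrophil genes were called (median -0.04, against -0.01 over all genes). Only 0.455% of all genes were called in that comparison, so the count says little about neutrophil genes. In IL-17C+KO involved skin 5 of the 15 lay above the array median at 10 weeks and 8 at 14 weeks. In IL-6KO skin 4 did at each age, against 5 and 3 in WT skin. Cxcr2, the receptor that draws neutrophils to chemokines, read 4.21 and 5.45 in IL-17C+KO involved skin and 4.88 and 5.20 in IL-6KO skin, against 4.13 and 3.90 in WT skin. Its difference between IL-6KO and WT skin (1.03) was the largest of the 15, while Mmp9 differed by -0.62 and Ly6g by -0.40. Mpo, Elane and Camp lay at or below the array median on all 12 arrays. Retnlg, a neutrophil-rich resistin-like gene, read 7.64 and 8.93 in IL-17C+ involved skin and 2.90 and 3.71 in IL-6KO skin, against 3.73 and 2.68 in WT skin. The part of neutrophil content in the S100a8 and S100a9 differences was not tested.

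**Figure D3:**
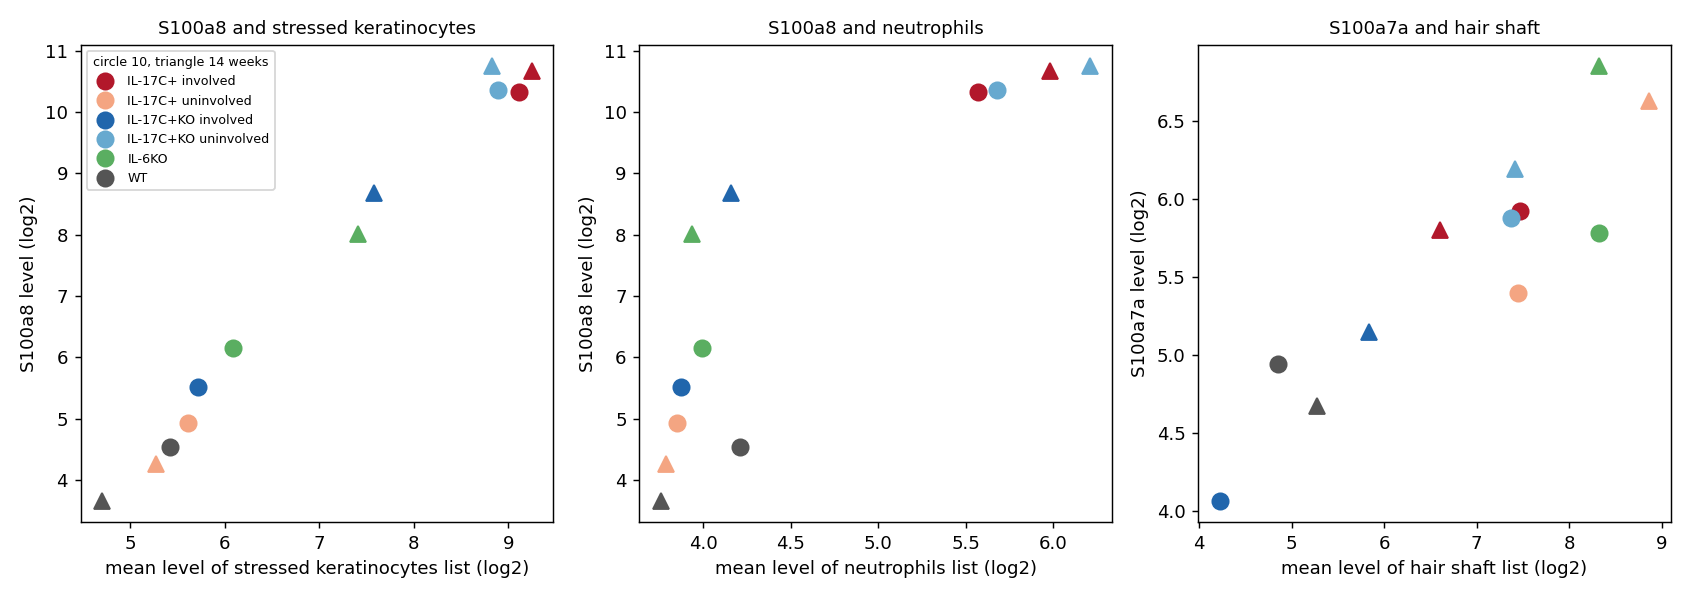
Level of S100a8 against the mean of the stressed keratinocyte list (left) and the neutrophil list (middle), and of S100a7a against the hair shaft list (right), all log2, 1 point per array, coloured by group. IL-6KO and IL-17C+KO involved skin at 14 weeks have S100a8 at 8.01 and 8.69 with neutrophil means of 3.94 and 4.16.

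In IL-17C+ involved against WT skin, 7 of 15 neutrophil genes were higher (median 1.21) and 7 of 8 stressed keratinocyte genes were (median 4.73), against a median of 0.01 over all genes. Krt6b, a stress keratin, was higher by 6.50 ± 0.65 and Krt16 by 5.70 ± 0.73. In the same comparison 17 of 21 muscle genes were lower (median -2.33) and 3 of 9 hair shaft genes were higher (median 1.70). In IL-17C+KO uninvolved against IL-17C+ uninvolved skin, 7 neutrophil genes and 5 stressed keratinocyte genes were higher (medians 1.53 and 3.95). In IL-17C+KO involved against IL-17C+ involved skin, 7 neutrophil genes (median -1.50) and 2 stressed keratinocyte genes (median -2.88) were lower. In IL-6KO against WT skin, where 0.455% of all genes were called, 0 of 8 stressed keratinocyte genes were, with a median of 1.97. There 8 of 9 hair shaft genes were higher (median 2.94).

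None of the 11 listed other S100 genes of the complex was called in IL-17C+ involved against WT skin (median -0.03) or in any of the 10 other between-group comparisons. At most 1.80% of all genes were called in any of these. Of the 4 listed genes on other chromosomes (S100b, S100g, S100z and the binding partner gene S100pbp) none was called in any of the 14 comparisons, where at most 2.58% of all genes were. In the interaction of transgene and IL-6, S100a3 gave -4.52 ± 0.79 with limma's adjusted p of 0.0149, the only one of the 11 called there. S100a7l2, an S100 gene of the complex that the list left out, was lower by 1.35 in IL-17C+KO uninvolved against IL-17C+ uninvolved skin (limma's adjusted p 0.0411). S100a3, known for its expression in hair cuticle cells, read 4.54 and 6.37 in IL-17C+KO involved skin and 8.59 and 8.42 in IL-6KO skin, against 6.00 and 6.92 in WT skin. Like S100a7a it followed the hair shaft mean (r = 0.931) and not the stressed keratinocyte mean (r = 0.264).

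Of 7 S100-fused genes, which join an S100 domain to a long repeat and build the cornified layer or hair, Rptn was higher by 4.81 ± 0.62 and the filaggrin relative Flg2 lower by 2.48 ± 0.39 in IL-17C+ involved against WT skin, with limma's adjusted p of 0.00211 and 0.00809. The median of the 7 was 1.29. Rptn, for repetin, read 6.12 and 9.76 in IL-17C+KO involved skin and 7.56 and 9.34 in IL-6KO skin, against 4.90 and 6.11 in WT skin. Tchhl1, a trichohyalin relative, was higher by 2.86 ± 0.52 in IL-6KO skin, the one of the 7 called there, with limma's adjusted p of 0.0376.

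Along the complex, RefSeq lists 70 protein-coding genes between S100a1 and S100a10, of which 61 were measured. S100a7a, S100a8 and S100a9 stand at places 10, 11 and 12, between S100a6 and the peptidoglycan recognition gene Pglyrp4. In IL-17C+ involved against WT skin, S100a6 differed by 0.42 with limma's adjusted p of 0.581 and Pglyrp4 by 0.13 with 0.908, so neither neighbour outside the 3 was called. Over the 61 genes 13 were higher and 2 lower (median 0.67), the higher ones outside the members being 6 Sprr genes, 4 Lce3 genes and Rptn. In IL-17C+KO uninvolved against IL-17C+ uninvolved skin 10 were higher and 1, S100a7l2 at place 14, was lower.

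**Figure D4:**
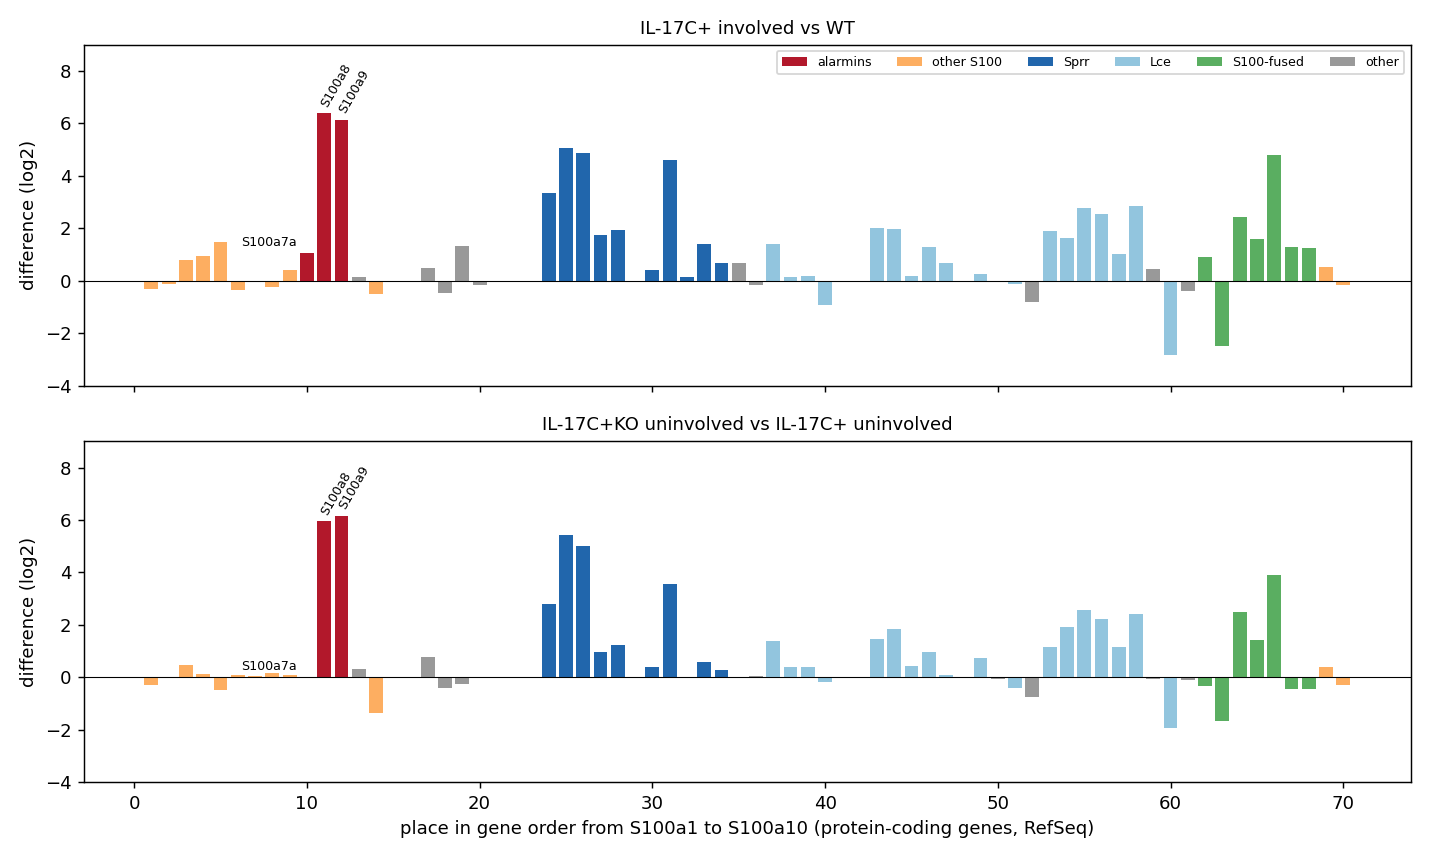
Difference of each measured gene (y axis, log2) by its place in the gene order of the epidermal differentiation complex (x axis), coloured by family, for 2 comparisons. S100a8 and S100a9 at places 11 and 12 differ by 6.39 and 6.14 in the upper panel and by 5.95 and 6.16 in the lower one, and S100a7a at place 10 by 1.06 and 0.02.

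Genes around the S100A8 and S100A9 signal were described as lists. Of 11 measured receptor and signalling genes, 3 were higher in IL-17C+ involved against WT skin (median 0.37): Il1b by 5.88 ± 0.46, the TLR4 co-receptor Cd14 by 3.42 ± 0.45 and Cd33 by 1.36 ± 0.30. Il1b read 10.40 and 11.08 there, 4.95 and 6.42 in IL-17C+KO involved skin and 4.85 and 5.90 in IL-6KO skin, against 4.85 and 4.87 in WT skin. Neither Tlr4 nor Ager, the gene of RAGE, was called in any of the 14 comparisons. Of 14 measured transcription factors reported upstream, 1 was called in IL-17C+ involved against WT skin, Cebpb by 1.11 ± 0.24 with limma's adjusted p of 0.0335.

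Of 16 other antimicrobial genes of skin, 7 were higher and 1 lower in IL-17C+ involved against WT skin (median 1.35). They include the acute-phase gene Saa3 at 6.64 ± 0.51, the defensin Defb3 at 5.20 ± 0.91 and the other defensin Defb14 at 3.39 ± 0.32. In IL-6KO against WT skin 2 were called, Lcn2, the siderophore-binding lipocalin, at 2.47 ± 0.45 and Defb4 at 1.96 ± 0.37, with limma's adjusted p of 0.0376 and 0.0414. Saa3 read 4.25 and 4.68 in IL-6KO skin, against 4.13 and 4.00 in WT skin, where S100a8 read 6.16 and 8.01, against 4.55 and 3.67. In the interaction of site and IL-6, 9 of the 16 were lower and 1 higher (median -2.60).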

How the data were processed

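The data are expression array intensities of 12 pools of mouse dorsal skin. Per the submitters' processing notes, the authors ran RMA (background correction, normalization and summary) in Affymetrix Expression Console; the sources used here do not give versions, genome build or probe filters. The deposited intensity values are linear (2.50 to 18385), so log2 was taken here. The design had been written for log2 values. Of 41345 rows, 23521 name 1 gene. The row with the highest mean stood for each of 1082 genes with several, leaving 22180 genes. No array reports a depth. The number of arrays limits the precision, and for dim genes background does too.

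Groups came from the labels. Limma 3.58.1 in R 4.3.3 fitted group plus age over all 12 arrays (lmFit, eBayes with a trend, 5 residual and 7.65 prior degrees of freedom). Age is the replicate number, 10 weeks being replicate 1 and 14 weeks replicate 2, and was the block. P-values were adjusted by Benjamini-Hochberg. There were 14 comparisons: 11 between groups, 2 interactions and age. The script was tested on simulated data.

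Members and gene lists were chosen with earlier results of these data known. Up to 3 called genes of a list and the largest not called could be named, and the 8 genes most like each member by correlation, without predicted loci. Ager, Tlr4, Camp, Mpo, Elane, S100a6, S100a7l2, Pglyrp4, Krt14, Krt10 and Retnlg, and the levels of single list genes, were named after their values were seen. Irak4, Fosl1, Nfkb1, Fpr1, Krt5, Trac, Lck and Krt85 have no row of their own. Of the 22180 genes, 21994 matched RefSeq (GRCm38.p6), which served for gene order and promoters. In all, 9 other settings were tried, and 2 more were chosen after seeing the data. No protein sequence was used here.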

Additional observations from a re-analysis of the deposited data

Results flagged for a closer look

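The effect of the transgene in involved skin differed between mice without and with IL-6 by a test of the difference itself, for all 3 genes. The values were -6.37 for S100a8, -6.20 for S100a9 and -2.77 for S100a7a, with limma's adjusted p of 0.0104, 0.0139 and 0.0214. Each of these calls was lost without some single arrays, and none held with the muscle covariate. With that covariate no gene at all was called in this test. The S100a7a call was also lost without age as a block. For S100a9 the transgene effect was -0.63 and 0.52 at 10 and 14 weeks without IL-6, against 5.87 and 6.40 with IL-6. The IL-6KO reference itself lay 2.81 above WT skin for S100a9, not called (limma's adjusted p 0.181). That reference is labelled involved and WT skin uninvolved, so only the effect with IL-6 also holds labelled site.

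The effect of site differed between IL-17C+KO and IL-17C+ mice by the same kind of test, with -9.35 for S100a8 and -9.55 for S100a9, and limma's adjusted p of 0.000343 and 0.000405. For S100a9 the involved minus uninvolved difference was -4.53 and -1.95 in IL-17C+KO mice at 10 and 14 weeks, against 5.37 and 7.25 in IL-17C+ mice. Both of these site calls were lost with the muscle covariate, where few genes of all were called. These tests share arrays.

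Both patterns rest on the site labels of the IL-17C+KO pools, where the pool labelled uninvolved had the higher inflammatory levels at both ages. With those labels exchanged, a choice made after seeing the data, the transgene by IL-6 values were -2.93, -2.96 and -1.34 for S100a8, S100a9 and S100a7a, and the site by IL-6 values were -2.45 for S100a8 and -3.07 for S100a9. None of the 5 was called by limma (adjusted p between 0.568 and 0.955), where 1 gene of all was called in each test. Exchanged labels and a true difference cannot be told apart.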

How the results depend on the processing

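With 2 pools per group and age as the only replication, the limits are those of 12 arrays: no group has a repeat at 1 age, tissue make-up varies with group, and dim levels near the array median are set by background. Age was the replicate block throughout. Without the replicate block S100a7a in the interaction of transgene and IL-6 was -2.77 and no longer called, and no other call of the 3 genes changed. With a replicate block of genotype and age, which pairs involved and uninvolved pools, no call of the 3 genes changed.

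The skeletal muscle covariate ended calls in IL-17C+ involved against WT (2.85 and 3.33 for S100a8 and S100a9), IL-17C+ involved against uninvolved (2.27 and 3.43), IL-17C+KO uninvolved against WT (4.13 and 4.15), IL-17C+KO uninvolved against IL-17C+ uninvolved (3.55 and 4.25), the interaction of transgene and IL-6 (-1.67 and -2.45, with -0.93 for S100a7a) and that of site and IL-6 (-4.38 and -5.60). It gave S100a8 a call in IL-17C+KO uninvolved against IL-6KO (3.29). It turned S100a7a in IL-17C+ involved against WT (-0.33), IL-17C+KO uninvolved against IL-17C+ uninvolved (-0.92) and site by IL-6 (0.67), and S100a9 in IL-17C+KO involved against IL-6KO (0.87). Another quantile normalization turned S100a8 in IL-17C+KO involved against IL-6KO (-0.0508) and S100a7a in IL-17C+KO uninvolved against IL-17C+ uninvolved (-0.0033). The cause was not tested.

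With only the arrays of the compared groups, interactions keep more residual degrees of freedom, and comparisons of 2 groups keep 1. There calls were gained for S100a7a in IL-17C+ involved against WT (1.06), IL-17C+KO uninvolved against WT (1.23) and IL-17C+KO involved against IL-6KO (-1.71), and for S100a8 and S100a9 in IL-6KO against WT (2.98 and 2.81), IL-17C+KO uninvolved against IL-6KO (3.46 and 3.18) and IL-17C+KO involved against IL-17C+ involved (-3.40 and -3.39). The last was also called for S100a8 after a filter that kept the 14363 genes exceeding their array's median on at least 2 arrays, and for S100a9 without the IL-6KO and IL-17C+ uninvolved arrays, a choice made after seeing the data. That choice changed no other call of the 3 genes. With the site labels of the IL-17C+KO pools exchanged, also chosen after seeing the data, calls ended in transgene by IL-6 (-2.93, -2.96 and -1.34 for S100a8, S100a9 and S100a7a) and in site by IL-6 (-2.45 and -3.07 for S100a8 and S100a9), and S100a7a turned in site by IL-6 (1.58). All genes called then numbered 1 in each.

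Leaving out each array in turn, with a lone pool assumed to vary like the other groups, gave these ranges for S100a8: IL-17C+ uninvolved against WT -0.46 to 1.43, IL-6KO against WT 2.03 to 3.93, IL-17C+KO involved against WT 1.51 to 4.48, against IL-6KO -1.47 to 1.4977, against IL-17C+KO uninvolved -4.93 to -1.96 and against IL-17C+ involved -4.88 to -1.91, IL-17C+KO uninvolved against IL-6KO 2.77 to 4.15, and transgene by IL-6 -7.86 to -4.89. For S100a9, in the same order, they were -1.51 to 1.16, 2.06 to 3.55, 1.32 to 4.18, -1.49 to 1.38, -4.67 to -1.80, -4.82 to -1.96, 2.44 to 3.93 and -7.63 to -4.76. For S100a7a they were -0.56 to 0.26 in IL-17C+ involved against uninvolved, -0.70 to 0.29 in IL-17C+KO involved against WT, -0.39 to 0.43 in IL-17C+KO uninvolved against IL-17C+ uninvolved, -0.59 to 0.0314 in IL-17C+KO uninvolved against IL-6KO and -3.26 to -2.28 in transgene by IL-6.

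The count of all genes called moved too. Leaving out each array in turn it ran from 65 to 509 in IL-17C+ involved against WT, 63 to 519 in IL-17C+ involved against uninvolved, 0 to 87 in IL-17C+ uninvolved against WT, 7 to 153 in IL-6KO against WT, 0 to 51 in IL-17C+KO involved against WT, 72 to 425 in IL-17C+KO uninvolved against WT, 0 to 62 in IL-17C+KO involved against IL-6KO, 15 to 164 in IL-17C+KO uninvolved against IL-6KO, 16 to 160 in IL-17C+KO involved against uninvolved, 23 to 244 in IL-17C+KO involved against IL-17C+ involved, 59 to 200 in IL-17C+KO uninvolved against IL-17C+ uninvolved, 71 to 504 in transgene by IL-6 and 208 to 731 in site by IL-6. With the muscle covariate the count was 0 in IL-17C+ involved against WT and against uninvolved, IL-6KO against WT, IL-17C+KO involved against IL-6KO and against IL-17C+ involved, and transgene by IL-6. It was 38 in IL-17C+ uninvolved against WT, 12 in IL-17C+KO uninvolved against WT, 29 in IL-17C+KO involved against uninvolved, 4 in IL-17C+KO uninvolved against IL-17C+ uninvolved and 11 in site by IL-6. With only the compared arrays, and in the order of the ranges above, it was 883, 770, 127, 266, 12, 1213, 130 and 563 for the first 8, 354 in IL-17C+KO uninvolved against IL-17C+ uninvolved, 436 in IL-17C+KO involved against IL-17C+ involved and 864 in site by IL-6. Quantile normalization again gave 671 in IL-17C+ involved against WT, 2 in IL-17C+ uninvolved against WT, 164 in IL-6KO against WT, 14 in IL-17C+KO involved against WT, 2 in IL-17C+KO involved against IL-6KO and 450 in transgene by IL-6. Without the replicate block it was 7 in IL-17C+ uninvolved against WT, 26 in IL-6KO against WT, 3 in IL-17C+KO involved against WT, 175 in IL-17C+KO uninvolved against WT, 14 in IL-17C+KO involved against IL-6KO and 181 in transgene by IL-6. The block of genotype and age gave 62 in IL-17C+KO involved against uninvolved. Without the intensity trend there were 3 in IL-17C+ uninvolved against WT, 63 in IL-6KO against WT and 15 in IL-17C+KO involved against IL-6KO. The filter on dim genes gave 19 in IL-17C+ uninvolved against WT and 13 in IL-17C+KO involved against WT.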
